A study of Mus musculus with 4 samples.

Results

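The genes described here were 10 genes of bone morphogenetic protein (BMP) and transforming growth factor-β (TGF-β) signalling, of the 31253 genes in the count tables. They were the ligands Bmp4, Bmp6, Tgfb1 and Tgfb2, the receptors Eng and Bmpr2, the inhibitors Smad6 and Smad7, and the targets Id1 and Id3. They were named by symbol, and each symbol stood on 1 row of the tables. The rule itself used no measured value, but the 10 genes were chosen with earlier results of these data known. Their RNA was counted by single-cell RNA-seq of left ventricular cells from 4 mouse libraries. Of these, 2 were labelled NC (chow, with 10% of energy from fat) and 2 labelled HFpEF (HFD with 60% of energy from fat, plus L-NAME at 0.5 mg/ml in the drinking water). The diets ran for 20 weeks, and the second models heart failure with preserved ejection fraction. All mice carried a tamoxifen-inducible Cre driven by the Cdh5 promoter, the R26-stop-tdTomato reporter and a floxed Scarb1 allele. The paper states a C57BL/6N background for the floxed line. By its account the mice received tamoxifen, after which cardiac endothelial cells expressed RFP, and RFP-positive cells were sorted. The series design names Sfl/fl/RΔEC and Sfl/+/RΔEC mice on each diet. The labels give the diet alone, so genotype entered no comparison. The paper describes 4 groups by diet and genotype, as many as there are libraries. The 2 libraries of a diet may therefore differ in genotype and not be replicates of each other. A genotype difference would then sit within the spread on which every SE and p-value here rests. Scarb1 itself was 114 and 49.4 CPM in NC against 119 and 54.3 CPM in HFpEF in capillary ECs and 92.7 and 32.9 CPM in NC against 101 and 44.2 CPM in HFpEF in artery ECs, lower in library 2 than in library 1 of either diet. The paper takes lower Scarb1 in capillary ECs of its Sfl/fl/RΔEC groups as evidence of the knockout. The floxed part is exon 2 and the libraries count 3′ tags, so this level is no direct check of the deletion, and no genotype was assigned from it. The paper gives an age at tamoxifen injection for its mice without the reporter, but not by name for these. Neither the age of these mice at collection nor the number of mice behind a library is given in the sources used here, so the p-values measure the spread between libraries.

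BMP and TGF-β ligands are secreted dimers that bring type I and type II receptor kinases together on the cell surface. The type I receptor then phosphorylates SMAD proteins, SMAD1, SMAD5 and SMAD8 on the BMP side and SMAD2 and SMAD3 on the TGF-β side, which enter the nucleus with SMAD4. Endothelial cells (ECs) carry the co-receptor endoglin (Eng) and the type II receptor Bmpr2, and loss of either causes inherited vascular disease. Id1 and Id3 encode inhibitors of basic helix-loop-helix transcription factors and are direct targets of BMP signalling, and the inhibitory SMADs Smad6 and Smad7 are induced by the pathway and act back on it.

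Cells with more than 200 genes and less than 20% of unique molecular identifiers (UMIs) from mitochondrial genes were kept, which left 5454 to 20882 cells and 10801149 to 47117650 UMIs a library. The NC libraries had medians of 3754 and 4127 UMIs a cell and the HFpEF libraries 1736.5 and 1619, so depth per cell went with diet. Any pair of libraries shared 10 to 42 cell barcodes. After cells with hemoglobin UMIs of 1% or more were set aside, clusters were named from markers, giving 20971 capillary, 4401 artery, 993 vein, 214 endocardial and 99 lymphatic ECs, 1036 pericyte-like, 649 smooth muscle-like and 148 fibroblast-like cells. EC clusters that reached no marker threshold of another class were taken as capillary, and several had no capillary marker among their leading genes. Cluster 3, with 3113 cells and with Myl3, Mb and mt-Nd5 among its leading genes, was one of these. Capillary markers summed to 11641 to 14899.5 CPM in the class as a whole. Another 10861 cells in EC clusters led by heat shock, hemoglobin, cardiomyocyte or mixed genes were left unnamed. The largest of these clusters, with 3269 cells led by Cyp1a1, Pth1r and Scgb3a1, had the artery marker Hey1 among its leading genes. Counts were summed over the cells of a class in each library and are given as CPM, the UMIs of a gene among 1000000 UMIs of that sum. Pairs of values are given in the order of the library numbers, NC 1 before NC 2 and HFpEF 1 before HFpEF 2. A sum cannot tell fewer expressing cells from less RNA per cell.

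The sorted label was not checked here, and several classes held markers of other cell types. The 5 pan-endothelial markers summed to 3783 to 4443 CPM in capillary ECs, 2479.9 to 2944 CPM in pericyte-like cells, 1787 to 1951 CPM in smooth muscle-like cells and 339.5 to 844 CPM in fibroblast-like cells. Mural-like cells therefore held EC transcripts beside mural markers, and the levels given for them below are of this mixture. Pericyte markers summed to 9696 to 11569.9 CPM in the pericyte-like class and to 10481 to 13655 CPM in the smooth muscle-like class, so they did not separate these classes. Smooth muscle markers summed to 359 to 535 CPM in the pericyte-like and 6777 to 9459 CPM in the smooth muscle-like class. The 162 B cells, which should lack Eng, still held 272 to 402 CPM of it. Their pan-endothelial markers summed to 2094 to 2208 CPM and their capillary markers to 5674 to 7932 CPM. B cell values below are therefore of a mixture too.

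Upstream windows of Smad6 and Tgfb2 are shown because these genes had the largest differences in diet effect between capillary and artery ECs. Of the 10 genes, 8 had an entry in the RefSeq promoter table (GRCm38.p6). Each window runs 5′ to 3′ from 250 bases before the start site to 30 bases after it, and capitals mark a match to one of 3 SMAD-related letter strings searched on both strands.
Smad6 (chr9:64022030-64022309, minus strand): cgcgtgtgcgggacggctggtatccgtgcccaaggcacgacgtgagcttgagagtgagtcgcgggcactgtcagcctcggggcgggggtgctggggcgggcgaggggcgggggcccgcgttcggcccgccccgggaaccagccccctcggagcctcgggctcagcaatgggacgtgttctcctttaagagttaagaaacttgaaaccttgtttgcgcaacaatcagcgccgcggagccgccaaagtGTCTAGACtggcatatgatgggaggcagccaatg
Tgfb2 (chr1:186705960-186706239, minus strand): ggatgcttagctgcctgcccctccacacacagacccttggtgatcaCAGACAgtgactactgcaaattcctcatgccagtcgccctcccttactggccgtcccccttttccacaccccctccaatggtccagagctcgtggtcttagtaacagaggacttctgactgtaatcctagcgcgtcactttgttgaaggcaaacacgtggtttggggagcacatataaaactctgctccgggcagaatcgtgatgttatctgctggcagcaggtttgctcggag
The palindrome GTCTAGAC, a SMAD-binding element, began 4 bases before the Smad6 start and occurred in 0.192% of the 32851 windows of this length in the table. CAGACA, the core of the CAGA box of TGF-β targets, occurred once in the Tgfb2 window and in 19.6% of all windows. GGCGCC, the GC-rich string bound by BMP-activated SMADs, occurred in the Bmpr2 window and in 10.9% of all windows. None of the strings overlapped in these windows, and a match is a description of letters, not a measured binding site.

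Among the ligands, each had its own distribution over the vascular tree (gene positions are those of GRCm38). Bmp6 (ENSMUSG00000039004, chr13:38345107-38500302, plus strand), a BMP that liver ECs secrete to control iron handling, was highest in endocardial ECs at 466 and 355 CPM in NC against 317 and 239.6 CPM in HFpEF. In capillary ECs its level was 121 and 142 CPM in NC against 129 and 109.8 CPM in HFpEF, and in artery ECs it was 25.6 and 38.4 CPM in NC against 14.3 and 31.9 CPM in HFpEF. The endocardial level lay above the capillary level in every library (log2 ratio within a library 1.42 ± 0.36, SD, n = 4 libraries), and the arterial level below it in every library (-2.22 ± 0.60). Vein ECs were between capillary and artery ECs (59.6 to 82.5 CPM). After thinning each cell to 1000 UMIs, at least 1 Bmp6 UMI was found in 11.2% of capillary ECs (95% exact binomial interval 10.7% to 11.6%; 28.4% before thinning). The share was 2.74% of artery ECs (7.95% before) and 22.7% of endocardial ECs (54.7% before). B cells, which should lack the gene, had 4.23% (1.57% to 8.97%). The median depth of the cells thinned was 2931 UMIs in capillary ECs and 3530 in B cells, and 1772 capillary ECs, 429 artery ECs and 20 B cells were too shallow. Artery ECs were thus not above the Bmp6 share of B cells, which themselves held capillary markers.

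Bmp4 (ENSMUSG00000021835, chr14:46383520-46390669, minus strand), a ligand released by activated and sheared endothelium, had another place, with its highest EC levels in veins and endocardium. It was 131 and 81.0 CPM in NC against 142 and 62.6 CPM in HFpEF in vein ECs. Endocardial ECs had 109 and 66.9 CPM in NC against 90.6 and 67.7 CPM in HFpEF, and capillary ECs 38.7 and 33.4 CPM in NC against 31.2 and 26.8 CPM in HFpEF. Both vein and endocardial ECs exceeded capillary ECs in 4 of 4 libraries (log2 ratios 1.58 ± 0.45 and 1.32 ± 0.24). Artery and capillary ECs did not separate (0.03 ± 0.39). Fibroblast-like cells spanned 52.5 to 244 CPM on 61 UMIs, with NC 2 far above the other libraries. These cells were too few for a test in any comparison.

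Tgfb1 (ENSMUSG00000002603, chr7:25687002-25705077, plus strand), the broadly made and latent TGF-β, varied little among the ECs of blood vessels. Its level was 246 and 205 CPM in NC against 205 and 232 CPM in HFpEF in capillary ECs and 263 and 217 CPM in NC against 231 and 217 CPM in HFpEF in artery ECs, 2 ranges that overlapped. Vein ECs (146 to 189 CPM) and smooth muscle-like cells (101 to 118 CPM) were lower than capillary ECs in every library. Lymphatic ECs reached 245 to 356 CPM on 125 UMIs and overlapped both.

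Tgfb2 (ENSMUSG00000039239, chr1:186622792-186705989, minus strand), the TGF-β of valve formation and of vessel wall development, had the largest difference between artery and capillary ECs of the 10. Artery ECs held 69.1 and 171 CPM in NC against 103 and 111 CPM in HFpEF, whereas capillary ECs held 2.03 and 3.00 CPM in NC against 6.07 and 5.88 CPM in HFpEF. The within-library log2 ratio was 4.47 ± 0.70. Vein ECs were as low as capillary ECs, with 11 UMIs in all and 0 in HFpEF 1, which allows up to 9.93 CPM there. Lymphatic ECs (69.2 to 149.9 CPM), fibroblast-like cells (75.5 to 93.2 CPM), smooth muscle-like cells (28.8 to 122 CPM) and pericyte-like cells (33.1 to 75.7 CPM) stood above capillary ECs in all 4 libraries but overlapped artery ECs. After thinning, 9.09% of artery ECs (8.21% to 10.0%) and 0.411% of capillary ECs (0.326% to 0.513%) had a Tgfb2 UMI. The capillary share was no higher than the 0.704% of B cells (0.0178% to 3.86%). Before thinning the shares were 21.6% of artery ECs, 1.08% of capillary ECs and 1.85% of B cells. These intervals cover counting error only.

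Of the receptors, Eng (ENSMUSG00000026814, chr2:32646595-32682669, plus strand), a co-receptor that binds BMP9 and BMP10, was highest in endocardial ECs at 2763 and 2781 CPM in NC against 1766 and 1999 CPM in HFpEF. Artery ECs came next at 1151 and 1175 CPM in NC against 846 and 1126 CPM in HFpEF and capillary ECs at 681 and 759 CPM in NC against 671 and 862 CPM in HFpEF. Within each library the order endocardial, artery, capillary held 4 of 4 times (log2 ratios to capillary ECs 1.62 ± 0.38 and 0.53 ± 0.20). Vein ECs did not separate from capillary ECs (-0.06 ± 0.23). Pericyte-like cells had 548 to 850.3 CPM, similar to capillary ECs, with the EC markers noted above moving beside it, and their part in this level was not tested. Fibroblast-like cells (151 to 315 CPM) overlapped B cells.

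Bmpr2 (ENSMUSG00000067336, chr1:59763400-59879014, plus strand), the type II BMP receptor, differed modestly between classes. Capillary ECs held 156 and 170.1 CPM in NC against 203 and 206 CPM in HFpEF. Artery, vein and endocardial ECs were above them in 4 of 4 libraries, by log2 ratios of 0.52 ± 0.15, 0.59 ± 0.15 and 0.75 ± 0.36. Artery and vein ECs overlapped (246 to 298 CPM and 253 to 311 CPM). Pericyte-like and smooth muscle-like cells were close to capillary ECs (0.14 ± 0.11 and 0.19 ± 0.08).

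Smad6 (ENSMUSG00000036867, chr9:63953076-64022059, minus strand), the inhibitory SMAD that acts chiefly on BMP receptors and is known in flow-exposed arterial endothelium, was high in artery ECs. They held 226 and 207 CPM in NC against 139 and 195 CPM in HFpEF. It was 52.4 and 49.1 CPM in NC against 47.4 and 85.2 CPM in HFpEF in capillary ECs and 27.3 and 27.5 CPM in NC against 33.1 and 37.8 CPM in HFpEF in vein ECs. The order artery, capillary, vein held in 4 of 4 libraries, with log2 ratios to capillary ECs of 1.71 ± 0.43 for artery and -0.85 ± 0.27 for vein ECs. Endocardial ECs (117 to 279.6 CPM) overlapped artery ECs. Smad7 (ENSMUSG00000025880), the inhibitory SMAD for both branches, was 361 and 448 CPM in NC against 329.6 and 403 CPM in HFpEF in artery ECs and 199.6 and 216 CPM in NC against 259.7 and 285 CPM in HFpEF in capillary ECs. Capillary, vein, pericyte-like and smooth muscle-like cells overlapped for Smad7, and lymphatic ECs were lowest of the EC classes at 21.3 to 88.1 CPM.

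The levels of the targets rested on 102048 Id1 and 125691 Id3 UMIs in capillary ECs. Id1 (ENSMUSG00000042745, chr2:152736251-152737410, plus strand) was 1658 and 1435 CPM in NC against 1501 and 1377 CPM in HFpEF in capillary ECs and 1921 and 1731 CPM in NC against 1333 and 1398 CPM in HFpEF in artery ECs, which overlapped. Vein ECs were lower in every library (1200.3 and 848 CPM in NC against 719 and 939.8 CPM in HFpEF, log2 ratio -0.71 ± 0.27), and endocardial ECs were lower again (415 and 161 CPM in NC against 166 and 369 CPM in HFpEF, log2 ratio -2.55 ± 0.70). Id3 (ENSMUSG00000007872, chr4:136143497-136145755, plus strand) differed little among capillary, artery, vein, pericyte-like and smooth muscle-like cells, whose means ran from 1702 to 1996 CPM. Endocardial ECs held about a log2 unit less Id3 than capillary ECs (-0.94 ± 0.33). Endocardial ECs thus had the highest Bmp6, Eng and Bmpr2 of the named EC classes by their means, and less Id1 than capillary, artery and vein ECs in each of the 4 libraries. Low targets were not particular to them. Lymphatic ECs held 241 to 560 CPM of Id1, which overlapped endocardial ECs, and had a lower mean Id3 (585 against 968 CPM). B cells held 466 to 1020 CPM of Id1. The plot of levels by class shows each library.

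**Figure D1:**
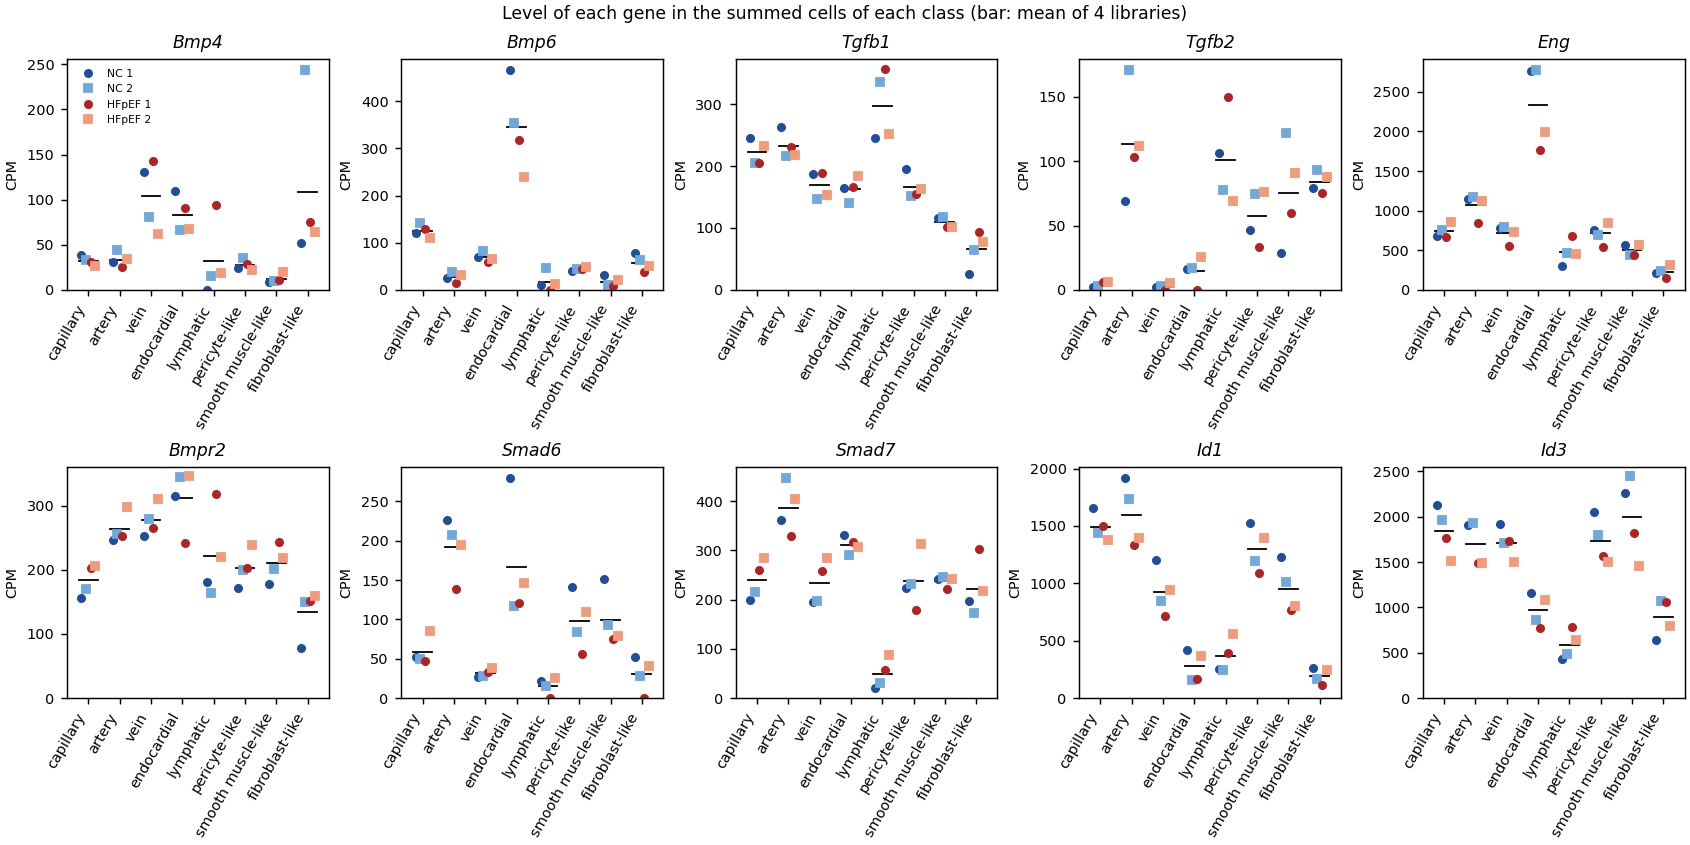
Level of each of the 10 genes (y axis, CPM, linear and starting at 0) in 8 cell classes (x axis), 1 symbol per library and a bar at the mean of 4 libraries. Bmp6 and Eng peak in endocardial ECs, Tgfb2, Smad6 and Smad7 are higher in artery than in capillary ECs, and Id1 is low in endocardial ECs, lymphatic ECs and fibroblast-like cells.

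The levels also differed among the 10 clusters of capillary ECs, which had been clustered without any pathway gene, and are given without a test. Each mean is over 4 libraries, and neighbouring clusters often overlapped. Cluster 10, led by Timp4, Adh1, Aqp1 and Car4, had the highest Bmp6 (170.0 ± 16.3 CPM, SD, n = 4 libraries), Id1 (1739 ± 139.5 CPM) and Id3 (2259 ± 354 CPM). Cluster 1, led by Apln, Tnf, Cxcl2 and Pgf, had the lowest of all 3 (66.3 ± 18.1 CPM, 1036 ± 218 CPM and 1363 ± 171 CPM) and also the lowest Eng (493 ± 113 CPM). Cluster 6, led by Cxcl10, Adamts4 and Neurl3, lay near cluster 1 for Bmp6 (87.7 ± 8.41 CPM) and Id3 (1415 ± 186 CPM), and had the highest Tgfb1 of the capillary clusters (261 ± 15.2 CPM). Bmp4 followed another order, with a mean of 41.7 ± 18.4 CPM in cluster 1 and 20.1 ± 10.0 CPM in cluster 10. It was highest in the pair of small clusters led by Cysltr1 (55.9 ± 14.2 CPM and 60.2 ± 28.1 CPM), the first of which was also high in Id3 (2146 ± 409 CPM). Cluster 15 had the lowest Bmp4 (17.1 ± 11.6 CPM). Cluster 15, with Pth1r, Aqp7 and mt-Nd5 among its leading genes, had the highest Eng (1073 ± 138 CPM), Bmpr2 (247 ± 37.6 CPM) and Smad6 (87.2 ± 27.1 CPM). This cluster was shallow (median 982.5 UMIs a cell) and held 50 and 27 cells in NC. Its Smad6 level rests on 98 UMIs. The capillary cluster plot gives the library values.

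**Figure D2:**
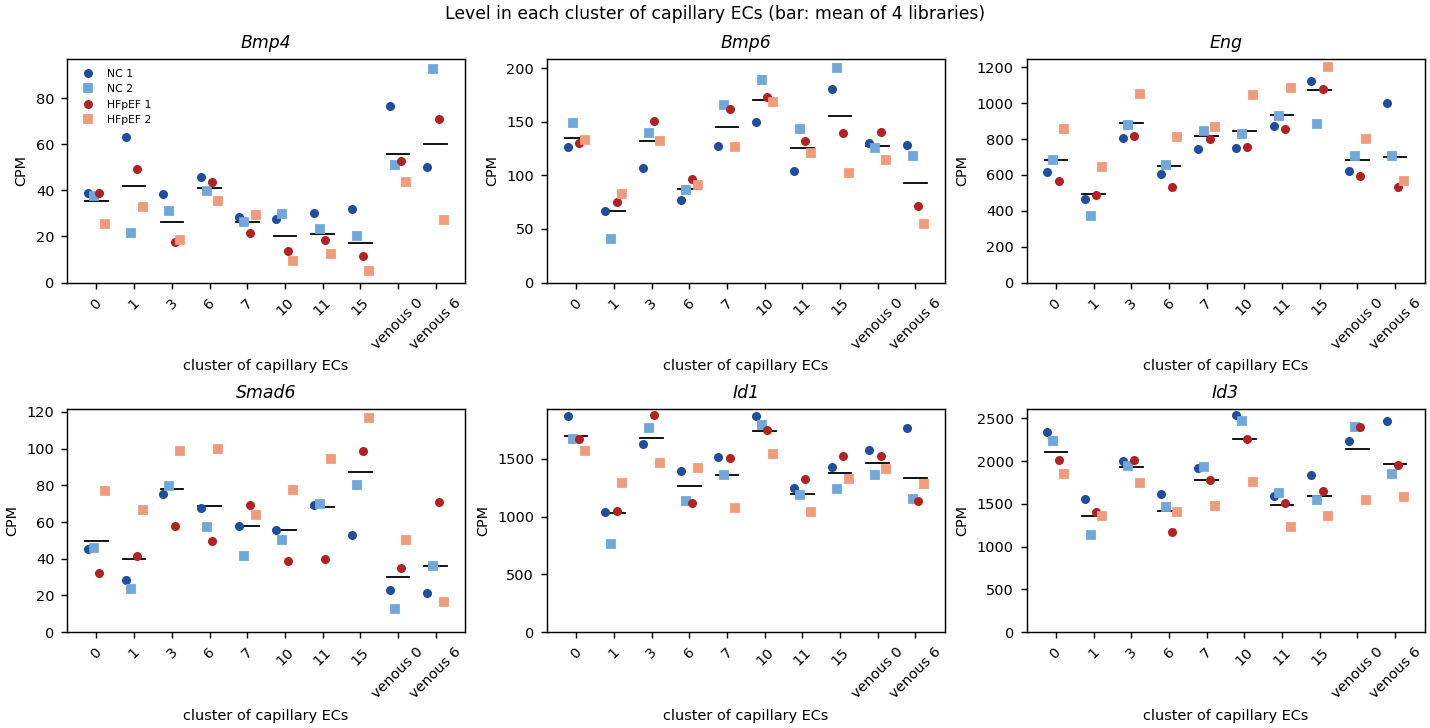
Level of 6 of the genes (y axis, CPM) in each of the 10 clusters of capillary ECs (x axis), 1 symbol per library and a bar at the mean of 4. Cluster 10 has the highest mean Bmp6, Id1 and Id3 and cluster 1 the lowest, and HFpEF 2 is the highest library for Smad6 in 8 of the 10 clusters.

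The genes whose levels ran most like each member over the 39 sums of 13 classes with at least 20 cells were found by Pearson correlation of log2(CPM + 10) among 8520 genes, with sums of 1 library sharing its depth and free RNA. For Id1 they were Itpkb (0.92), Ushbp1 (0.92) and Adgrg1 (0.92). For Eng they were Tm4sf1 (0.88), Tspan6 (0.85) and Acer2 (0.85), for Tgfb2 Fbln5 (0.87), Ak3 (0.85) and Cyth3 (0.84) and for Bmp6 Adh1 (0.83), Car8 (0.76) and Rps6ka2 (0.75). Smad6 ran most like Tm4sf1 (0.81), Eogt (0.79) and Clec2d (0.77), Id3 like Dab2ip (0.89), Arid5b (0.86) and Junb (0.85), and Bmp4 like Gata6 (0.79), Ddah2 (0.79) and Tmed3 (0.78). Tgfb1 ran like Crlf2 (0.84), Lyn (0.77) and Arpc3 (0.74), Bmpr2 like Unc13b (0.82), Osmr (0.82) and Bsg (0.81) and Smad7 like Pcmtd1 (0.75), Nfe2l1 (0.75) and Enpp4 (0.75). Tm4sf1, a membrane protein abundant in endothelium, was the first gene for both Eng and Smad6, and Fbln5, the first for Tgfb2, was one of the markers that named artery ECs.

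The diet comparison asked whether these levels differed between HFpEF and NC libraries within a class. No member passed edgeR's quasi-likelihood test (Benjamini-Hochberg adjusted p under 0.05 over all genes tested) in any of the 6 classes with enough cells, with 2 libraries a side and with 14 of 57 member tests under an unadjusted p of 0.05. DESeq2 also called 0. By class, 5 of 10 members were under that p in capillary ECs (18.7% of all genes tested), 2 of 10 in artery ECs (11.8%) and 1 of 9 in vein ECs (9.26%). In endocardial ECs it was 2 of 9 (7.63%), in pericyte-like cells 1 of 10 (9.20%) and in smooth muscle-like cells 3 of 9 (8.97%). Few genes of any kind were called. The same test called 0.115% of all 12220 genes in capillary ECs, 0.0284% in artery, 0.368% in vein and 0.129% in endocardial ECs, 0.176% in pericyte-like cells and 0.165% in smooth muscle-like cells. Counted by libraries alone, both HFpEF libraries lay outside the NC range for 5 of 10 members in capillary ECs (all genes 50.6%), 4 of 10 in artery ECs (44.2%) and 4 of 9 in vein ECs (39.6%). The count was 3 of 9 in endocardial ECs (38.1%), 2 of 10 in pericyte-like cells (39.8%) and 6 of 9 in smooth muscle-like cells (39.5%). In each class but smooth muscle-like cells, the members' share of such separated values was near or below that of all genes.

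The smallest adjusted p belonged to Tgfb2 in capillary ECs, where the 4 values above gave HFpEF above NC (log2 fold change 1.23, SE 0.26, adjusted p = 0.0946, edgeR). Those 4 levels rest on 285 UMIs in 20971 cells. Summed artery markers in capillary ECs were 160.3 and 141 CPM in NC against 136 and 191 CPM in HFpEF, and their part in the Tgfb2 difference was not tested. With hemoglobin-rich cells left out before clustering, Tgfb2 passed (1.85 with adjusted p = 0.0360), and without HFpEF 1 it also passed (1.19 with adjusted p = 0.0270). Smad7 in capillary ECs was higher in both HFpEF libraries than in both NC libraries (log2 fold change 0.39, SE 0.10, adjusted p = 0.129), as was Bmpr2 (log2 fold change 0.33, SE 0.10, adjusted p = 0.166). Within the 10 capillary clusters both HFpEF libraries exceeded both NC libraries in 9 for Smad7, in 9 for Bmpr2, in 4 for Tgfb2 and in 4 for Smad6. These clusters come from the same 4 libraries and so are not independent. The share over all genes was not taken within clusters, and in capillary ECs as a whole 50.6% of all genes did not overlap between diets. Smad6 in capillary ECs was high in HFpEF 2 alone (log2 fold change 0.41, SE 0.22, adjusted p = 0.355), with HFpEF 1 below both NC libraries, and without HFpEF 1 the difference passed (0.72 with adjusted p = 0.00621).

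Id1 and Id3 were below 0 on the log2 scale in all 6 classes, which share libraries and so are not independent. Id3 in smooth muscle-like cells was 2266 and 2446 CPM in NC against 1818 and 1452 CPM in HFpEF, with no overlap between diets (log2 fold change -0.50, SE 0.15, adjusted p = 0.249). Artery markers in that class were 1829 and 1749.7 CPM in NC against 1367 and 1189.8 CPM in HFpEF and capillary markers 2857 and 2277 CPM in NC against 3471 and 3371 CPM in HFpEF, neither overlapping between diets, and their part in its Id3 values was not tested. In artery ECs Id3 was 1906 and 1929 CPM in NC against 1490.2 and 1485 CPM in HFpEF, again without overlap (log2 fold change -0.35, SE 0.13, adjusted p = 0.330). In capillary ECs it was 2128 and 1967 CPM in NC against 1762 and 1516 CPM in HFpEF (log2 fold change -0.32, SE 0.13, adjusted p = 0.252). Within the 10 capillary clusters, which are not independent, both HFpEF libraries were below both NC libraries for Id3 in 5 and for Bmp4 in 4. The share over all genes was not taken within clusters here either. The make-up of the class also differed by diet. Cluster 1, with the lowest Id3, held 133 and 98 cells in NC against 384 and 2589 in HFpEF, and cluster 10, with the highest, held 788 and 557 against 288 and 489. The part of this make-up in the capillary diet values was not tested. Id1 in artery ECs did not overlap either (log2 fold change -0.40, SE 0.13, adjusted p = 0.280), whereas in capillary ECs it did (log2 fold change -0.10, SE 0.13, adjusted p = 0.703). For Id3, edgeR's fold changes spanned -0.50 to -0.17 over the 6 classes and for Id1 -0.47 to -0.02. Depth per cell, which was lower in both HFpEF libraries, went with these values, and its part was not tested.

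In endocardial ECs, where Eng and Bmp6 were highest, both HFpEF libraries were below both NC libraries for Eng (log2 fold change -0.62, SE 0.19, adjusted p = 0.320) and for Bmp6 (log2 fold change -0.69, SE 0.30, adjusted p = 0.612). The class had 22 to 96 cells a library and held fibroblast markers (3112 to 5646 CPM), and its summed endocardial markers were 4704 and 5049 CPM in NC against 3246 and 3208 CPM in HFpEF, also lower in HFpEF, a movement whose part in the Eng and Bmp6 values was not tested. Bmp4 was below 0 in all 5 classes where it was tested (log2 fold changes -0.35 to -0.21, adjusted p 0.233 to 0.895). Tgfb1 stayed between -0.19 and 0.16 in all 6 classes. The plot of diet effects holds all 57 estimates.

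**Figure D3:**
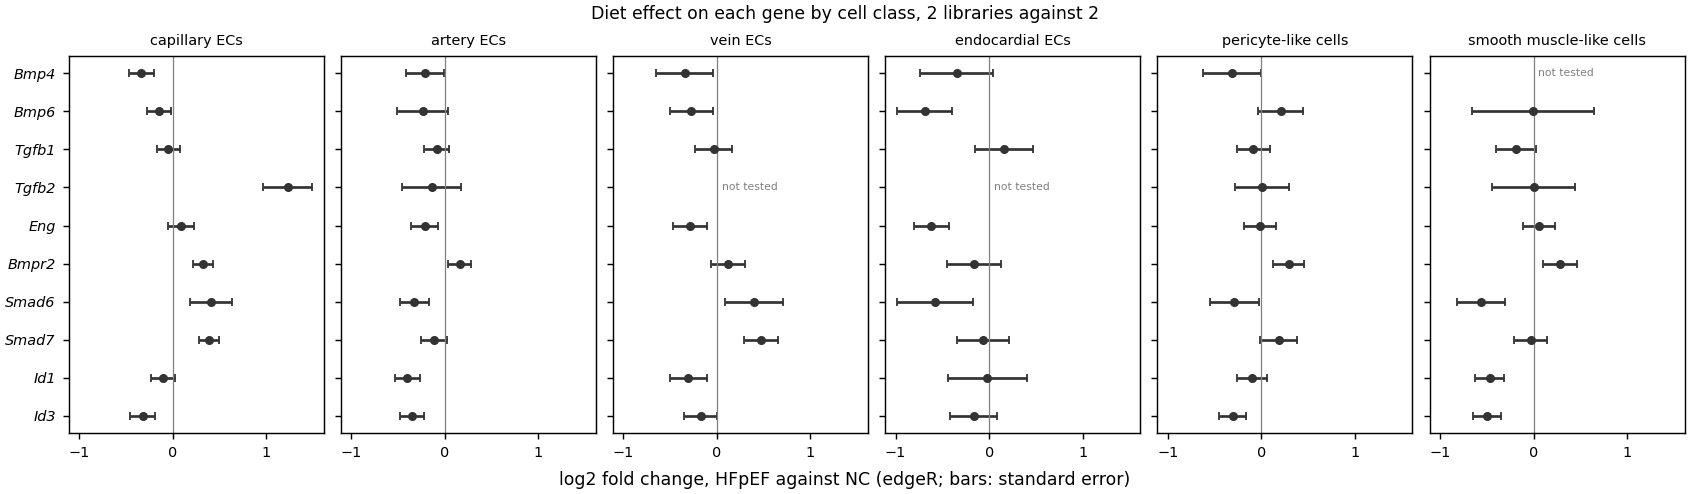
edgeR log2 fold change, HFpEF against NC (x axis; points are estimates, bars standard errors), for the 10 genes (y axis) in each of 6 cell classes. None of the 57 estimates passed an adjusted p of 0.05, the one farthest from 0 is Tgfb2 in capillary ECs at 1.23, and Id1 and Id3 lie left of 0 in every class.

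The diet effect itself differed between capillary and artery ECs for 3 of the 10 members in edgeR's test with a term for each library (34 of 11344 genes called, 0.3% of all). For Smad6, the ratio of the artery to the capillary level was 4.31 and 4.21 in NC against 2.92 and 2.29 in HFpEF, so the 2 classes lay closer together in HFpEF (log2 difference -0.78, SE 0.11, adjusted p = 0.00256). The underlying estimates were 0.41 in capillary and -0.32 in artery ECs, neither of which passed alone. For Smad7 the same ratio was 1.81 and 2.08 in NC against 1.27 and 1.42 in HFpEF (log2 difference -0.50, SE 0.10, adjusted p = 0.0234). For Tgfb2 it was 34.0 and 56.9 in NC against 17.0 and 19.0 in HFpEF (log2 difference -1.33, SE 0.22, adjusted p = 0.00736). In all 3 the HFpEF ratios lay below both NC ratios. The Tgfb2 ratios divide by capillary levels of 2.03 to 6.07 CPM, where the share of cells with a UMI was no higher than in B cells. Tgfb2 in artery ECs itself overlapped between diets, so its ratios do not show a narrowing between 2 classes that both express it.

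Eng, Id1 and Bmpr2 had ratios of the same direction without passing in this fit. Without a filter on low counts, where 83 genes were called, Eng and Id1 passed. Id1 also passed without hemoglobin-rich cells from the start. The share of all genes whose ratios did not overlap between diets was not taken. Within single classes, 38.1% to 50.6% of all genes had levels that did not overlap. The artery to capillary ratio of Eng was 1.69 and 1.55 in NC against 1.26 and 1.31 in HFpEF (log2 difference -0.31, SE 0.08, adjusted p = 0.153), and that of Id1 was 1.16 and 1.21 in NC against 0.888 and 1.01 in HFpEF (log2 difference -0.30, SE 0.08, adjusted p = 0.234). For Bmpr2 it was 1.57 and 1.51 in NC against 1.25 and 1.45 in HFpEF (log2 difference -0.15, SE 0.10, adjusted p = 0.921). The ratios of Bmp4, Bmp6, Tgfb1 and Id3 overlapped between diets. Artery markers in artery ECs were 2046 and 2263 CPM in NC against 2141 and 2035 CPM in HFpEF, and capillary markers there were 8444 and 7560.3 CPM in NC against 6478 and 7518 CPM in HFpEF and lay a little lower in HFpEF. In capillary ECs, capillary markers were 14899.5 and 14116 CPM in NC against 12042 and 11641 CPM in HFpEF, also lower in HFpEF, and their part in the 3 differences was not tested. The 3 calls depended on the library and the tool. Without HFpEF 2 none held. The values were then, for Smad6 -0.53 with adjusted p = 0.585, for Smad7 -0.60 with adjusted p = 0.185, and for Tgfb2 -1.47 with adjusted p = 0.413. Without NC 2 neither Smad7 (-0.41 with adjusted p = 0.206) nor Tgfb2 (-0.86 with adjusted p = 0.335) held. DESeq2 called none (Smad6 -0.74 with adjusted p = 0.249, Smad7 -0.51 with adjusted p = 0.730, Tgfb2 -1.31 with adjusted p = 0.167). A gate on single-cell markers in place of clusters also called none (Smad6 -0.54 with adjusted p = 0.123, Smad7 -0.29 with adjusted p = 0.918, Tgfb2 -1.03 with adjusted p = 0.852). Counting the unnamed ECs as capillary, an alternative chosen after seeing the data, ended the call of Tgfb2 (-0.92 with adjusted p = 0.0711). The direction was the same in each of these fits. The largest unnamed cluster, with the artery marker Hey1 among its leading genes, had means of 121 CPM for Smad6, 344 CPM for Smad7 and 17.3 CPM for Tgfb2. Each of these was above the mean of every capillary cluster.

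**Figure D4:**
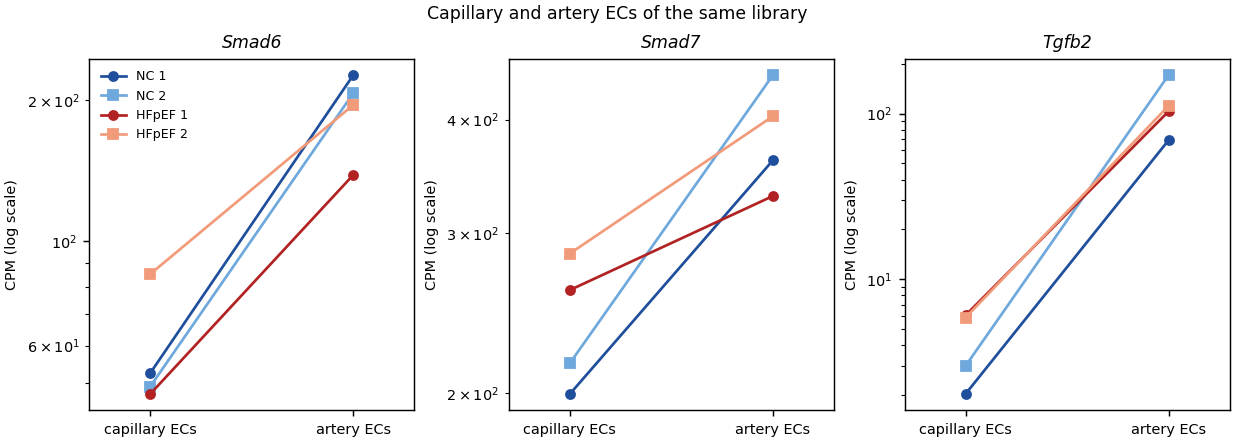
Levels of Smad6, Smad7 and Tgfb2 (y axis, CPM, log scale) in capillary and artery ECs, with a line joining the 2 classes of each library. The lines of the HFpEF libraries are less steep than those of the NC libraries in all 3 panels, and HFpEF 2 stands above the others for Smad6 in capillary ECs. Tgfb2 in capillary ECs lies at only 2.03 to 6.07 CPM.

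Between capillary and vein ECs no member's diet effect passed the same test (32 of 10988 genes called, 0.291% of all, with 1 of 10 members and 5.82% of all genes under an unadjusted p of 0.05, and DESeq2 calling no member). The nearest was Eng, with a vein to capillary ratio of 1.15 and 1.05 in NC against 0.819 and 0.855 in HFpEF (log2 difference -0.40, SE 0.12, adjusted p = 0.118). Smad7 differed little between the classes (0.39 in capillary and 0.47 in vein ECs). The vein to capillary ratios of Eng, Bmpr2 and Tgfb2 were lower in both HFpEF libraries than in both NC libraries. Those of Id3 and Smad7 were higher in both, and the ratios of the remaining members overlapped. Tgfb2 rested on 11 UMIs in vein ECs. The share of all genes with such separated ratios was not taken.

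The rest of the pathway was read from a list of 85 further genes. In capillary ECs 59 were tested and 1 passed, Gdf15, a stress-induced ligand of the TGF-β superfamily, with 17.6 and 13.6 CPM in NC against 43.3 and 66.1 CPM in HFpEF (log2 fold change 1.83, SE 0.20, adjusted p = 0.0334, edgeR). With all 4 libraries kept, the number of genes called in capillary ECs ran from 1 to 1061 over the settings, against 14 here. Whether Gdf15 kept its call in each setting is not given here. The list's median log2 fold change in capillary ECs was 0.05, against -0.00432 for all genes tested. In artery ECs Gdf15 was 62.7 and 51.9 CPM in NC against 306 and 149 CPM in HFpEF (log2 fold change 1.95, SE 0.29, adjusted p = 0.0531), with no overlap between diets. No listed gene passed edgeR's test in the other 5 classes, with 11 of 53 under an unadjusted p of 0.05 in artery ECs (20.8%), 10 of 48 in vein (20.8%) and 5 of 42 in endocardial ECs (11.9%), 12 of 51 in pericyte-like (23.5%) and 9 of 50 in smooth muscle-like cells (18.0%). Of all genes tested, 11.8% were under that p in artery, 9.26% in vein and 7.63% in endocardial ECs, 9.20% in pericyte-like and 8.97% in smooth muscle-like cells. In capillary ECs 18.6% of the listed genes tested were under it, against 18.7% of all genes. The list was not tested as a set. Of the 7 further ligands tested in capillary ECs, Gdf15 among them, 5 estimates were above 0, and of 10 further receptors 6 were. Bmp1, a procollagen protease named as a BMP, was lower in both HFpEF libraries there (14.7 to 20.7 CPM over the 4, log2 fold change -0.29, SE 0.13, adjusted p = 0.291).

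Among the receptors, Acvrl1 (ALK1), the endothelial type I receptor for BMP9 and BMP10, was 201 and 168 CPM in NC against 158 and 158 CPM in HFpEF in capillary ECs and 351 and 353 CPM in NC against 278 and 284 CPM in HFpEF in artery ECs, lower in both HFpEF libraries in each case without passing (log2 fold change -0.31, SE 0.11, adjusted p = 0.340 in artery ECs). Tgfbr2, the type II TGF-β receptor, was 58.9 and 58.4 CPM in NC against 66.7 and 66.2 CPM in HFpEF in capillary ECs (log2 fold change 0.18, SE 0.10, adjusted p = 0.383). Smad1 (log2 fold change -0.20, SE 0.13, adjusted p = 0.442) and Smad4 (log2 fold change -0.14, SE 0.11, adjusted p = 0.521), which carry the BMP signal and join either branch, did not pass in capillary ECs. The carriers Ltbp4, which holds latent TGF-β in the matrix (log2 fold change 0.13, SE 0.14, adjusted p = 0.657), and Crim1, a binder of BMPs (log2 fold change 0.27, SE 0.10, adjusted p = 0.230), and the intracellular inhibitors Fkbp1a, which holds type I receptors inactive (log2 fold change -0.06, SE 0.13, adjusted p = 0.824), and Ski, a SMAD corepressor (log2 fold change -0.04, SE 0.12, adjusted p = 0.887) did not pass either.

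Of the further targets, Atoh8, a BMP-induced transcription factor, was 44.3 and 53.6 CPM in NC against 26.7 and 23.4 CPM in HFpEF in artery ECs (log2 fold change -1.01, SE 0.17, adjusted p = 0.0712) without passing. In capillary ECs it was 58.1 and 45.7 CPM in NC against 34.5 and 29.2 CPM in HFpEF (log2 fold change -0.72, SE 0.15, adjusted p = 0.0937), and in both classes the HFpEF libraries lay below the NC libraries. Ccn1, a matricellular target that other pathways also induce, had the opposite sign in capillary ECs (log2 fold change 0.52, SE 0.12, adjusted p = 0.102) and in smooth muscle-like cells at 447 and 434 CPM in NC against 796 and 681 CPM in HFpEF (log2 fold change 0.77, SE 0.16, adjusted p = 0.0537). Cdkn1a, a cell cycle inhibitor that TGF-β can induce, was lower in HFpEF without overlap in artery ECs (log2 fold change -0.44, SE 0.16, adjusted p = 0.323). Tmem100, an ALK1 target, was 16.6 and 21.5 CPM in NC against 6.20 and 3.75 CPM in HFpEF in pericyte-like cells (log2 fold change -2.07, SE 0.50, adjusted p = 0.107). Thbs1, an activator of latent TGF-β, was 18.3 and 25.0 CPM in NC against 130.2 and 33.0 CPM in HFpEF there (log2 fold change 1.66, SE 0.46, adjusted p = 0.195), with HFpEF 1 far above the other libraries. Ltbp1, a binder of latent TGF-β (log2 fold change 1.04, SE 0.35, adjusted p = 0.294), and the SMAD corepressor Tgif2 (log2 fold change 1.09, SE 0.50, adjusted p = 0.518) in vein ECs and its relative Tgif1 (log2 fold change 1.17, SE 0.46, adjusted p = 0.529) and Thbs1 (log2 fold change 1.42, SE 0.44, adjusted p = 0.353) in endocardial ECs were at least 1 log2 unit apart without overlap and did not pass. Fstl1, a secreted protein known to bind BMP4, was the 1 listed gene whose diet effect differed between capillary and vein ECs (log2 difference -1.02, SE 0.25, adjusted p = 0.0334). It spanned 13.8 to 25.2 CPM in capillary ECs, higher in both HFpEF libraries, and was 80.8 and 85.4 CPM in NC against 53.0 and 72.7 CPM in HFpEF in vein ECs. With all 4 libraries kept, the number of genes called for this difference ran from 3 to 56 over the settings, against 32 here. Whether Fstl1 kept its call in each setting is not given here.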

How the data were processed

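RFP-positive left ventricular cells of 2 NC and 2 HFpEF libraries were sequenced with 10x 3′ v3 kits. Per the labels and methods, the authors ran fastp and Cell Ranger 5.0.1 on mm10, downsampled reads between samples and deposited raw UMI counts per gene and cell. Cells with over 200 genes and under 20% mitochondrial UMIs were kept. Cells were clustered (2000 variable genes, 10 components, Louvain, resolution 0.8) without pathway genes, and classes named from markers. Capillary was the class taken where no other threshold was reached. Cells with at least 1% hemoglobin UMIs were clustered with the rest and then left out of the classes. Scrublet (scanpy 1.11.5) marked 0 to 2 cells a library and did not work as a caller, so doublets stayed in. The doublet rate expected from the number of cells was 16.7% in HFpEF 2 and 4.36% to 5.70% in the other libraries. Summed counts per class and library were tested with edgeR 4.0.16 (quasi-likelihood, TMM, filterByExpr, Benjamini-Hochberg) where each library had 20 cells, with DESeq2 1.42.0 as an alternative. Scripts were tested on simulated data. Named were all 10 members and, of the list, genes that passed, the 2 highest of each role in capillary ECs, and those with a log2 change of at least 1, a mean of at least 10 CPM and no overlap. The members and gene lists were chosen with earlier results of these data known.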

Additional observations from a re-analysis of the deposited data

Results flagged for a closer look

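The following 3 results stood out because the diet effect in artery ECs differed from that in capillary ECs by a test of the difference itself (edgeR, adjusted over 11344 genes). The difference was -0.78 for Smad6, -1.33 for Tgfb2 and -0.50 for Smad7 on the log2 scale, artery minus capillary. Each was higher in HFpEF than in NC in capillary ECs and lower in artery ECs by its estimate, and no estimate passed within a class. By library, Smad6 in capillary ECs and Smad7 and Tgfb2 in artery ECs overlapped between diets. DESeq2 and the gate on single-cell markers each ended all 3 calls.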

How the results depend on the processing

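By the tests of the report, the number of genes called was 14 in capillary ECs, 3 in artery ECs, 28 in vein ECs, 6 in endocardial ECs, 16 in pericyte-like cells, 13 in smooth muscle-like cells, 0 among the members, 34 for the difference between capillary and artery ECs and 32 for the difference between capillary and vein ECs. Only counts that moved by over 1.5 times follow. With DESeq2, it was 233 in capillary ECs, 33 in artery ECs, 4 in vein ECs, 2 in smooth muscle-like cells, 4 for the difference between capillary and artery ECs and 3 for the difference between capillary and vein ECs. With DESeq2's size factors, it was 40 in capillary ECs. Without a filter on low counts, it was 1061 in capillary ECs, 287 in artery ECs, 101 in vein ECs, 77 in endocardial ECs, 116 in pericyte-like cells, 69 in smooth muscle-like cells, 2 among the members and 83 for the difference between capillary and artery ECs. Without hemoglobin-rich cells from the start, it was 61 in capillary ECs, 61 in artery ECs, 5 in pericyte-like cells, 0 in smooth muscle-like cells, 1 among the members and 56 for the difference between capillary and vein ECs. Without the highest Scrublet scores, it was 41 in artery ECs and 0 in smooth muscle-like cells. From cells with 1000 UMIs or more, it was 30 in artery ECs, 26 in endocardial ECs, 5 in pericyte-like cells and 8 in smooth muscle-like cells. With the single-cell marker gate, it was 1 in capillary ECs, 92 in vein ECs, 0 in endocardial ECs, 69 in pericyte-like cells, 5 in smooth muscle-like cells and 1 for the difference between capillary and artery ECs. At clustering resolution 1.2, it was 40 in capillary ECs, 10 in artery ECs, 3 in endocardial ECs, 54 in pericyte-like cells, 20 in smooth muscle-like cells, 99 for the difference between capillary and artery ECs and 19 for the difference between capillary and vein ECs. With unnamed ECs counted as capillary, chosen after seeing the data, it was 1 in capillary ECs and 17 for the difference between capillary and artery ECs. Leaving out 1 library at a time, which leaves 1 library in an arm and assumes that it varies like the rest, gave 2 to 656 in capillary ECs, 4 to 170 in artery ECs, 14 to 103 in vein ECs, 32 to 84 in endocardial ECs, 60 to 123 in pericyte-like cells, 12 to 67 in smooth muscle-like cells, 0 to 3 among the members, 0 to 73 for the difference between capillary and artery ECs and 5 to 48 for the difference between capillary and vein ECs. Without HFpEF 2 the difference between capillary and artery ECs called no gene, without HFpEF 1 the count in capillary ECs was 656, and without NC 1 it was 2, and the cause was not tested.

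Some members were called elsewhere. Without the filter these were Smad6 (0.40 with adjusted p = 0.0472) and Tgfb2 (1.22 with adjusted p = 0.000287) in capillary ECs. The artery minus capillary differences of Eng (-0.31 with adjusted p = 0.0336, edgeR) and Id1 (-0.29 with adjusted p = 0.0322, edgeR) passed there too. That of Id1 also passed without hemoglobin-rich cells from the start (-0.34 with adjusted p = 0.0242, edgeR). Without HFpEF 1 Id3 passed in smooth muscle-like cells (-0.68 with adjusted p = 0.00501), without NC 2 Tgfb2 did there (1.52 with adjusted p = 0.0181), and without NC 1 Tgfb2 did in artery ECs (-0.64 with adjusted p = 0.0227). A replicate block by library number gave 224 in capillary ECs, 1 in artery ECs, 43 in vein ECs, 6 in endocardial ECs, 50 in pericyte-like cells, 2 in smooth muscle-like cells and 0 among the members. Deviations of libraries with the same number correlated between -0.07 and 0.06 over the classes, and the labels do not say what a number marks, so no pairing was used. Scarb1 was lower in library 2 of either diet in capillary, artery and vein ECs and in pericyte-like and smooth muscle-like cells. In endocardial ECs it was 6.43 and 6.69 CPM in NC against 30.2 and 2.82 CPM in HFpEF. Its part in the change under the block was not tested. Of the single values (folds, class ratios and shares), 3818 stayed the same and 335 moved, of which 255 were folds or differences that changed sign and passed in neither fit. A fold stayed the same if it kept its direction and side of the threshold. A class ratio did so if it lay within the SD of its main value. A share did so if its value after thinning to 500 UMIs lay in its 95% interval. Another 84 gained or lost a call, 23 of them for members. Lost calls among the rest were those of Gdf15 in capillary ECs or of Fstl1 between capillary and vein ECs. The depth of the HFpEF libraries, at medians of 1736.5 and 1619 UMIs a cell, and the 11 to 285 Tgfb2 UMIs of vein and capillary ECs limit what could be detected.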
